A study of Komagataella phaffii with 72 samples.

Results

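GQ67_02654 is a single gene of the yeast Komagataella phaffii (Pichia pastoris), 1 of 5120 endogenous genes counted in 72 libraries. The study pairs it with the name YDL218W, that of a gene of the baker's yeast Saccharomyces cerevisiae. The gene was chosen from its row in the tables, with its levels in these libraries known, so its levels and its differences between strains and products are described here and not tested. The study had listed it among 20 genes with the strongest loadings on a component of strains without a transgene on glycerol, in libraries not used here. By that component the study found GS115 to differ from the other strains, so a GS115 difference was known beforehand.

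In S. cerevisiae, YDL218W encodes a protein of unknown function. Its transcription there has been reported to depend on the zinc finger factor Azf1 and to be induced by starvation and in aerobic growth. K. phaffii is a methylotrophic yeast that secretes heterologous proteins well, usually under the methanol-inducible promoter of alcohol oxidase 1 (AOX1). What the gene does in K. phaffii is not known from the labels or the files.

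Each of 4 strains carried a transgene under the AOX1 promoter, on the vector pPICZ A, for secretion of human growth hormone (rhGH) or of granulocyte colony-stimulating factor (rG-CSF). Y-11430 is the oldest of these strains, and GS115 is a histidine-requiring mutant made from it by chemical mutagenesis. Y-48124 and X-33 are listed as revertants of GS115. The study found that they grew without histidine but more slowly than with it, and that their HIS4 gene still carried a substitution. For each of the 8 strain and product groups, 3 clones (separate transformants) were grown as 3 cultures each (A, B and C), 24 hr in 4% glycerol and then 24 hr in 1.5% methanol, when RNA was taken. No strain without a transgene was analysed here, and all groups share the glycerol and methanol feeding. They did not grow alike: the study reports that its GS115 strains with a transgene grew poorly, which it ascribes to their need for histidine. Growth and strain cannot be told apart in the GS115 comparisons. The RNA was sequenced from the 3′ end of transcripts, so a read stands for a transcript end and levels are given as deposited, as log2(TPM + 1), where TPM scales the reads of a transcript by its length and by the total of the library. Cultures were averaged by clone first, and a group value is the mean ± SD of 3 clones. The study describes the 3 clones of a strain as spanning low to high transgene copy number. The SD between clones therefore covers clones that differ in copy number. Where it reports their growth, the study calls the cultures of a clone independent replicates.

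Total counts lay between 386665 and 33003281, with a median of 1425891, and the gene itself had 54 to 13101 counts per library, with a median of 576. The highest total belonged to GS115 rG-CSF 14A (clone 14, culture A), while the next highest of the 72 was 5996828. Correlation with every other library over 5020 other genes placed 39 libraries closest to a culture of their own clone, 18 closest to another clone of their group and 15 closest to another strain. Among the last, library X-33 rhGH 12A was closest to Y-11430 rhGH 22B, with r = 0.97. Its rhGH transgene was at 12.84, against 10.79 and 10.99 in cultures B and C of its clone. That value lay within the range of the Y-11430 rhGH libraries, 12.63 to 13.24. The labels give no reason for this. Within Y-11430 rhGH, libraries 22A, 8A and 8C stood apart: they correlated with each other at r = 0.955 to 0.976 and with the other 6 libraries of the group at 0.908 to 0.941, while those 6 correlated among themselves at 0.949 to 0.970. These 3 libraries come from 2 clones, and each clone has at least 1 library on the other side. Values that rest on them are given with and without them.

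GQ67_02654 was a well expressed gene in every group. In 69 of the 72 libraries it was above at least 90.6% of the other genes by TPM, and in GS115 rG-CSF it reached above 99.2% of them. The 3 exceptions were Y-11430 rhGH 22A, 8A and 8C, where 74.4% to 80.6% of the other genes were lower. By raw count, which is not divided by transcript length, these libraries had 58.5%, 58.8% and 68.9% of the other genes lower. In Y-11430 rG-CSF 13C, the share by raw count was 87.0%. On the TPM scale it ran from 89.5 to 3081.

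**Figure D1:**
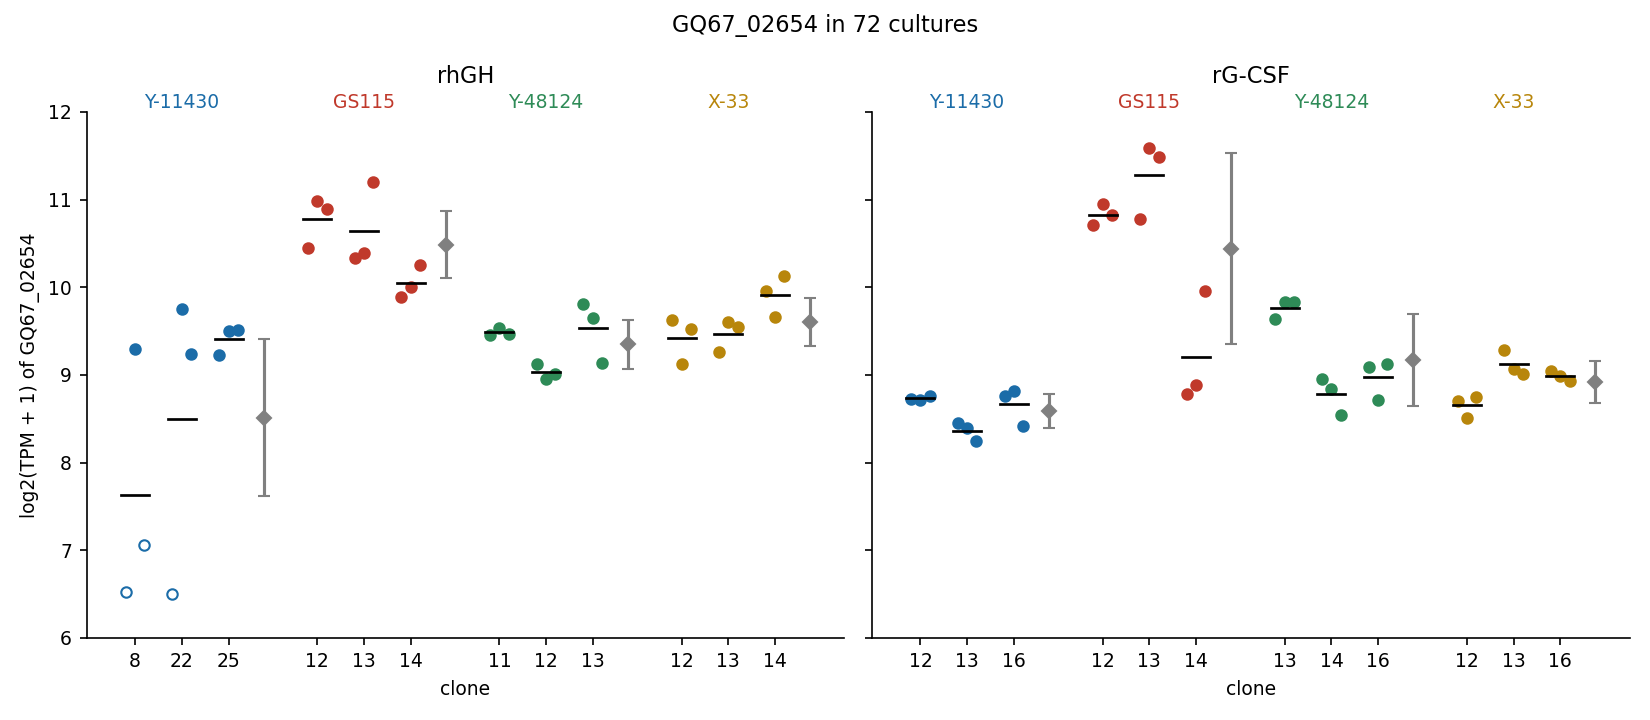
The log2(TPM + 1) of GQ67_02654 in each culture (points), by clone within strain and product, with clone means (black bars) and group means ± SD over 3 clones (grey diamonds). Open points are Y-11430 rhGH 22A, 8A and 8C, at 6.50, 6.52 and 7.05, and the GS115 clones lie highest except for rG-CSF clone 14 at 9.21.

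The gene was highest in GS115, at 10.49 ± 0.39 with rhGH and 10.44 ± 1.09 with rG-CSF (SD, n = 3 clones). X-33 rhGH followed at 9.60 ± 0.27, then Y-48124 rhGH at 9.35 ± 0.28, Y-48124 rG-CSF at 9.17 ± 0.52 and X-33 rG-CSF at 8.92 ± 0.24. Both Y-11430 groups were lowest, at 8.59 ± 0.20 with rG-CSF and 8.51 ± 0.89 with rhGH. In this order the clone ranges of every pair of neighbours overlapped. The step from X-33 rG-CSF to Y-11430 rG-CSF, 0.33, was larger than the SD of either group, and that from GS115 rG-CSF to X-33 rhGH, 0.84, was larger than the SD of X-33 rhGH alone. Without libraries 22A, 8A and 8C, Y-11430 rhGH stood at 9.40 ± 0.10, between X-33 rhGH and Y-48124 rhGH, and Y-11430 rG-CSF alone was at the bottom. Neighbouring groups in that second order also overlapped.

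With rhGH, the 3 cultures of GS115 clone 12 were at 10.45, 10.98 and 10.89 (A, B and C). Those of clone 13 were at 10.33, 10.39 and 11.20. Clone 14 was lower, at 9.89, 10.00 and 10.25. All 3 clone means (10.77, 10.64 and 10.05) lay above the 9 clone means of the other strains with rhGH, the highest of which was X-33 clone 14 at 9.92.

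That separation has to be read against the scale. On log2(TPM + 1), 41.8% of all genes had the 3 GS115 rhGH clones above the other 9, and the median of all genes was itself 0.50 higher in GS115 than in the mean of the other strains. The 20 most abundant genes of a library, transgenes included, took a median of 14.2% of the counts in GS115 rhGH and of 19.2% to 23.3% in the other rhGH groups, and their part in the shift was not tested. After TMM scaling, which sets most genes level between libraries, GS115 clone 14 was at a log2 CPM (counts scaled to the library total) of 9.23, below X-33 clones 13 and 14 (9.32 and 9.44) and Y-48124 clones 11 and 13 (9.32 and 9.29), so the groups then overlapped.

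On log2(TPM + 1), GQ67_02654 was 1.33 higher in GS115 rhGH than in the mean of the other strains, 2.52-fold. The edgeR fit on counts summed by clone, TMM scaled, gave a log2 fold change of 0.78 ± 0.29 (SE), with a median over all genes of 0.05. Of 5043 genes fitted, 22.9% had a log2 fold change at least this high, so a rise of this size was common in GS115 rhGH. Without libraries Y-11430 rhGH 22A, 8A and 8C the 2 values were 1.04 and 0.61.

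With rG-CSF the GS115 clones differed more among themselves. Clone 13 was highest, at 10.78, 11.59 and 11.49, and clone 12 lay at 10.72, 10.95 and 10.82. Clone 14 was at 8.78, 8.89 and 9.96, with 13101, 2561 and 3975 counts. Clones 12 and 13 lay above all 9 clones of the other strains with rG-CSF, while the mean of clone 14 (9.21) was below Y-48124 clone 13 (9.77). The groups therefore overlapped.

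The edgeR log2 fold change of GS115 against the other strains with rG-CSF was 1.46 ± 0.29, or 2.75-fold, and 9.02% of genes were at least as high. On log2(TPM + 1) the difference was 1.55, beside an all-gene median of 0.24. The edgeR value was 1.02 without clone 13, 1.84 without clone 14 and 1.52 without the deep library 14A alone.

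The other named genes were mixed in GS115 rG-CSF clone 14. NIT1 (GQ67_00061), whose S. cerevisiae namesake encodes a nitrilase, was at 8.61 in clone 14 and at most 5.05 in the other strains' rG-CSF clones. PDR12 (GQ67_05224), named for the plasma membrane pump that exports weak acids in S. cerevisiae, was at 4.28 in clone 14 and at least 7.48 in those clones. GQ67_01205 and GQ67_04725, given further on for their likeness to GQ67_02654, were at 6.14 and 3.18 in clone 14, inside the ranges of the other strains' clones (5.87 to 6.20 and 2.86 to 3.83). GQ67_05062, also among those genes, was at 11.17, just below their range of 11.21 to 12.27.

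**Figure D2:**
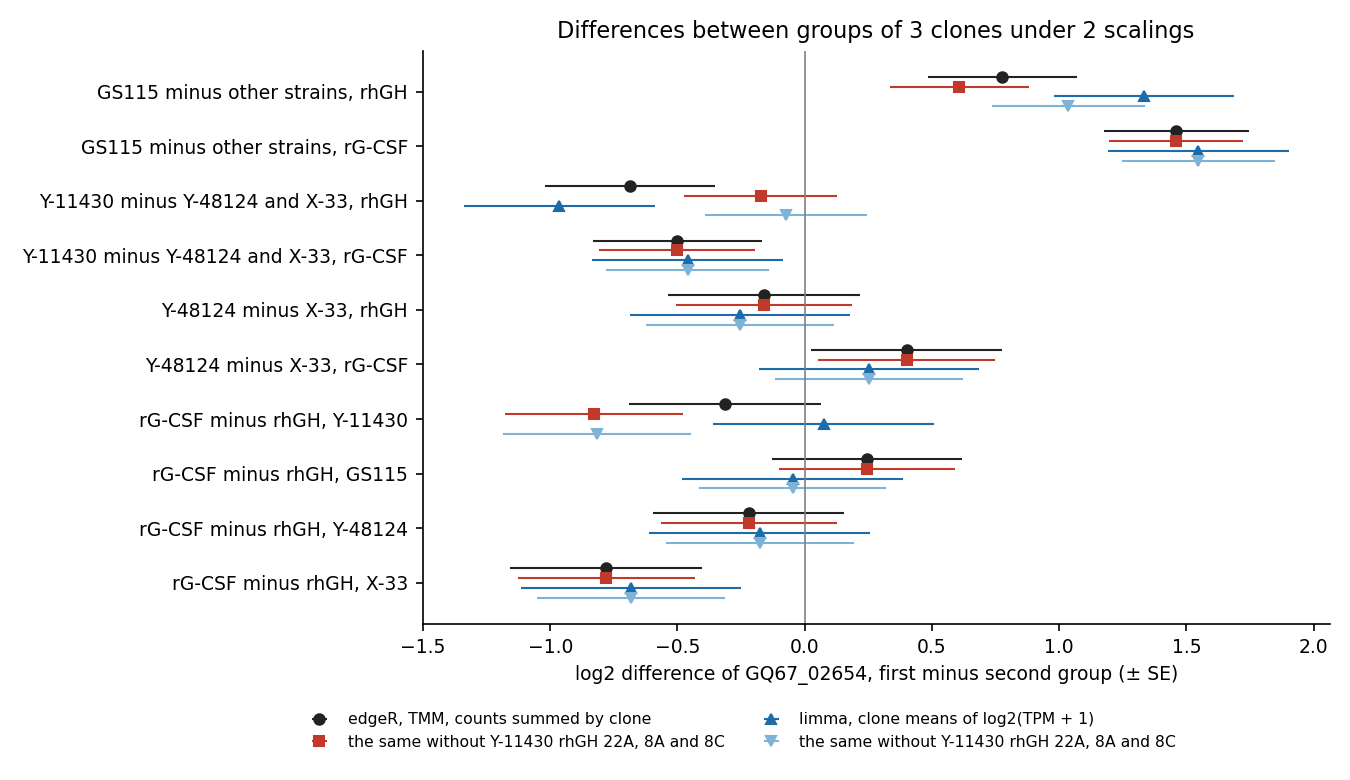
Log2 differences of GQ67_02654 for the 10 comparisons (first group minus second, ± SE), from edgeR with TMM scaling and from limma on clone means of log2(TPM + 1), each with and without Y-11430 rhGH 22A, 8A and 8C. Leaving these libraries out takes the Y-11430 difference with rhGH from -0.69 to -0.17 in the edgeR fit and the Y-11430 product difference from -0.31 to -0.83.

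Y-11430 rhGH was the group with the widest spread between cultures. Clone 25 was even, at 9.23, 9.50 and 9.51. Clone 22 was at 6.50, 9.76 and 9.24, and clone 8 at 6.52, 9.30 and 7.05. The pooled SD between cultures of a clone was 1.32 here, larger than that of 97.3% of genes, against 0.12 to 0.46 in the other 7 groups.

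The 3 low values rest on 115 counts in 22A, 83 in 8A and 54 in 8C. They correspond to 64.5 CPM (95% exact Poisson interval 53.2 to 77.4), 66.1 CPM (52.7 to 82.0) and 94.6 CPM (71.1 to 123). The other 6 libraries held 312 to 1292 counts, or 458 to 645 CPM. Counting error, which is all that these intervals cover, is small beside that gap. These are the 3 libraries that stood apart over the other genes.

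Of all genes, 12.6% were lower in each of the 3 libraries than in any of the other 6, and 16.0% were higher. The gap of GQ67_02654, 2.17 between the highest of the 3 and the lowest of the 6, had rank 5 among the genes that were lower. YFL040W (GQ67_02261), named for a putative sugar-porter family transporter of S. cerevisiae and listed by the study on the same side as GQ67_02654, was also low, at 6.91 to 7.07 against 8.92 to 10.17. The rhGH transgene was also lower, by far less, at 12.63 to 12.79 against 12.82 to 13.24. What set these cultures or libraries apart is not given in the labels, and its part in the result was not tested.

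**Figure D3:**
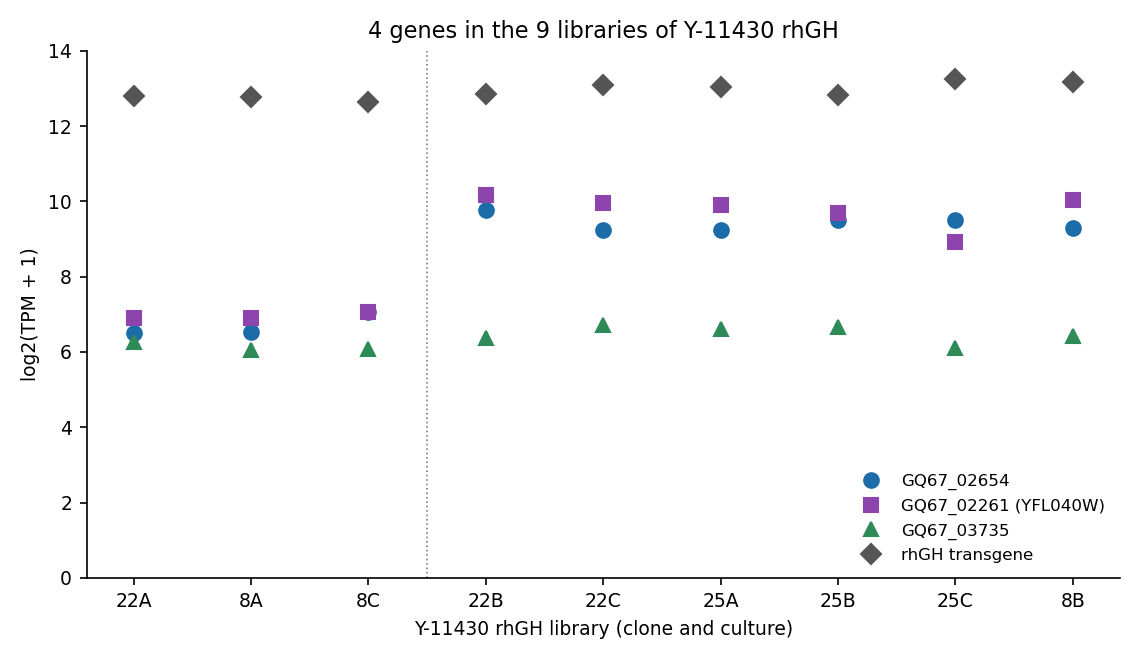
The log2(TPM + 1) of GQ67_02654, YFL040W (GQ67_02261), GQ67_03735 and the rhGH transgene in the 9 libraries of Y-11430 rhGH, named by clone and culture, with 22A, 8A and 8C left of the dotted line. GQ67_02654 lies at 6.50 to 7.05 on the left and 9.23 to 9.76 on the right, and GQ67_03735 at 6.05 to 6.27 and 6.12 to 6.71.

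The comparison of Y-11430 with its GS115-derived revertants Y-48124 and X-33 turned on those libraries for rhGH. The edgeR log2 fold change was -0.69 ± 0.34 with all libraries and -0.17 ± 0.30 without the 3. On clone means of log2(TPM + 1) it went from -0.96 to -0.07. Clone 25, which has none of the 3, was at 9.41, within the range of the Y-48124 and X-33 clones (9.03 to 9.92).

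With rG-CSF each of the 9 Y-11430 libraries was closest to another library of its group, and GQ67_02654 was even, while the clone means of YFL040W ran from 5.15 to 9.05. Clone 12 was at 8.72, 8.72 and 8.75, clone 13 at 8.45, 8.40 and 8.25 and clone 16 at 8.75, 8.82 and 8.42. The log2 fold change against Y-48124 and X-33 was -0.50 ± 0.33, or 1.42-fold lower. X-33 clone 12, at 8.65, lay within the Y-11430 range of 8.36 to 8.73, so the clones overlapped.

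The revertants Y-48124 and X-33 did not separate in either product. With rhGH the Y-48124 clone means were 9.49, 9.03 and 9.53 (clones 11, 12 and 13) and those of X-33 were 9.42, 9.47 and 9.92 (clones 12, 13 and 14), with an edgeR difference of -0.16 ± 0.38. With rG-CSF the Y-48124 means were 9.77, 8.78 and 8.98 (clones 13, 14 and 16) and those of X-33 were 8.65, 9.12 and 8.99 (clones 12, 13 and 16), a difference of 0.40 ± 0.38. Without Y-48124 rG-CSF clone 13 the latter was 0.01. This clone and X-33 rhGH clone 14 were the highest of the 18 clones outside GS115, and the 3 libraries of X-33 rhGH clone 14 each correlated best with a library of Y-48124 rG-CSF clone 13 over the other genes.

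Between products, X-33 was the strain in which the clones separated with all libraries in place. The 9 rhGH cultures ran from 9.12 to 10.13, with a median of 9.60. The 9 rG-CSF cultures ran from 8.51 to 9.28, with a median of 8.99. All 3 rhGH clone means lay above the 3 rG-CSF ones, as they did for 4.94% of all genes on this scale and for 10.5% after TMM scaling.

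The X-33 log2 fold change, rG-CSF minus rhGH, was -0.78 ± 0.38, or 1.72-fold lower with rG-CSF, and 2.32% of genes were at least as low. Without library X-33 rhGH 12A, which correlated best with a Y-11430 library, it was -0.76. On log2(TPM + 1) the difference was -0.68, while the median of all genes was 0.15 higher with rG-CSF.

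In Y-11430 the product difference depended on the libraries that stood apart. It was -0.31 ± 0.38 with all libraries and -0.83 ± 0.35 without 22A, 8A and 8C, when the 3 rhGH clone means (9.30 to 9.50) lay above the 3 rG-CSF ones, as 16.2% of genes then did. Clone means of log2(TPM + 1), in which the cultures kept of a clone weigh equally, gave 0.07 with all libraries and -0.82 without the 3. Without clone 25 of Y-11430 rhGH the edgeR value was 0.05.

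Y-48124 and GS115 showed no separation by product. In Y-48124 the 9 rhGH cultures lay at 8.95 to 9.80 and the 9 rG-CSF cultures at 8.54 to 9.83, with a log2 fold change of -0.22 ± 0.38. That value was -0.60 without rG-CSF clone 13 and -0.04 without rG-CSF clone 14. In GS115 the difference was 0.24 ± 0.37 in the edgeR fit and -0.05 on log2(TPM + 1). Its sign also turned with single clones, from -0.20 without rG-CSF clone 13 to 0.63 without rG-CSF clone 14. Differences between strains in the response to product were not tested, since the gene was chosen with these levels known.

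The level of each clone's own transgene was set beside GQ67_02654, since neither it nor the depth was used to choose the gene. GS115 was left out of these relations, because the study had found the gene among those that set GS115 apart. Over the 9 rhGH clones outside GS115, the relation to the rhGH transgene had Pearson r = -0.64 (two-sided exact permutation p = 0.060, 0.24 after Benjamini-Hochberg adjustment over 4 relations) and Spearman rho = -0.65 (exact permutation p = 0.067, adjusted 0.26). Without the 2 clones farthest from the median transgene level r was -0.77 (n = 7, exact permutation p = 0.043, adjusted 0.086). It was -0.29 without libraries 22A, 8A and 8C. The permutations shuffled clones across strains, although the transgene level differed between strains. The p-values therefore do not measure a relation within strains. Once both measures were centred on the strain mean, r was -0.07 with all libraries and -0.38 without 22A, 8A and 8C. The centred r was 0.57 without the 2 clones farthest from the median, so it rests on which libraries and clones are kept. The Y-11430 clones had the highest rhGH transgene levels of these 3 strains (12.86 to 13.03). Their mean of GQ67_02654 was the lowest of the 3 with all libraries, but not without 22A, 8A and 8C. The transgene level of X-33 clone 12 (11.54) includes library 12A, and no relation was run without that library.

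Over the 9 rG-CSF clones outside GS115, r with the rG-CSF transgene was -0.04 (exact permutation p = 0.91, adjusted 0.91) and rho was -0.10 (exact permutation p = 0.81, adjusted 0.81). After centring on strain means r was 0.72 over these 9 clones and 0.76 over all 12 clones with GS115, given as a description. With all libraries, the order of the clones by GQ67_02654 was their order by transgene in 4 groups and not in the other 4. The matching groups were GS115 with both products, Y-48124 with rG-CSF and Y-11430 with rhGH. In Y-11430 with rhGH the match rested on libraries 22A, 8A and 8C. Without them clone 8, then culture B alone, had the lowest GQ67_02654 of that group (9.30) and the highest transgene (13.16). In GS115 with rG-CSF the transgene was at 13.76, 11.83 and 9.85 in clones 13, 12 and 14, where the gene was at 11.28, 10.83 and 9.21. In X-33 with rhGH, clone 14 had the highest GQ67_02654 (9.92) and the lowest transgene (9.89).

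**Figure D4:**
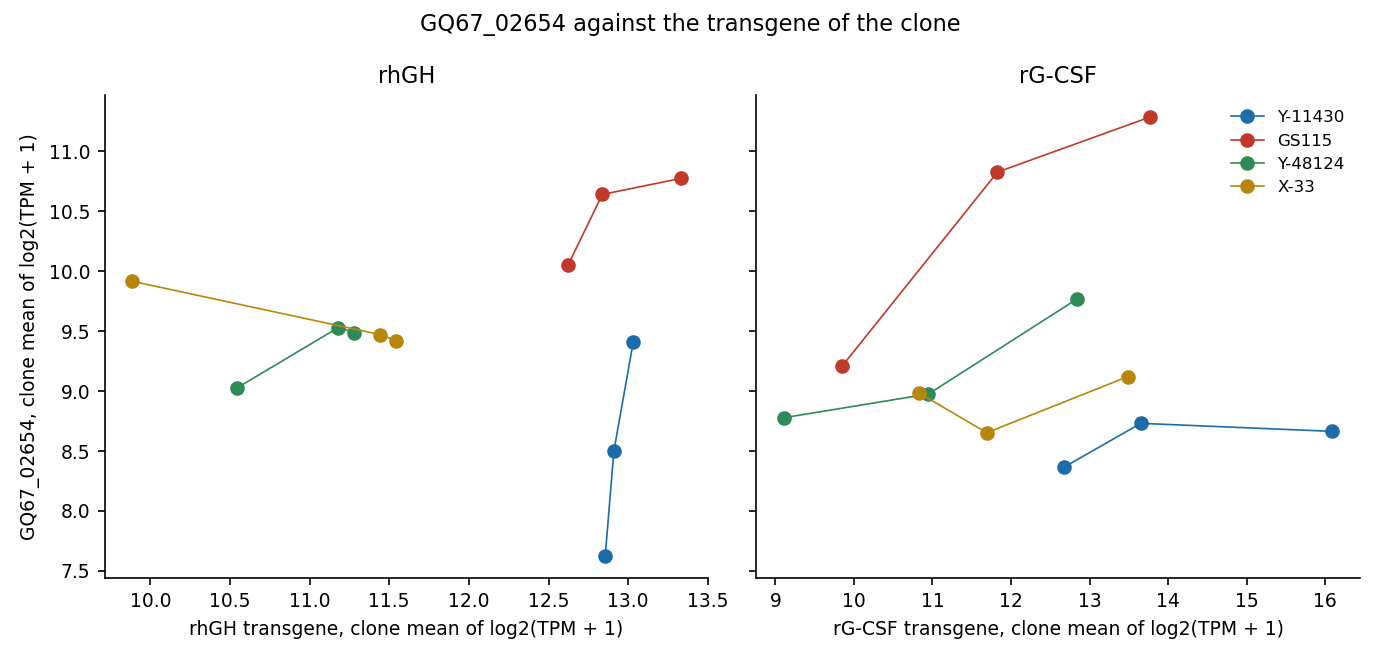
Clone means of log2(TPM + 1) of GQ67_02654 against those of the clone's own transgene, for rhGH (left) and rG-CSF (right), with the 3 clones of a strain joined. With rG-CSF the lowest-transgene clone of GS115, at 9.85, has the lowest GQ67_02654 of that strain, 9.21, and across the other 3 strains no common line appears.

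Depth was examined in the same way, with permutations that also ignored strain. Against the log10 total count, r was -0.31 over the 9 rhGH clones (exact permutation p = 0.43, adjusted 0.58; rho = -0.55, p = 0.13, adjusted 0.26). With rG-CSF it was 0.30 over 9 clones (exact permutation p = 0.43, adjusted 0.58; rho = 0.48, p = 0.19, adjusted 0.26). Without the 2 rG-CSF clones farthest from the median depth r rose to 0.92 (n = 7, exact permutation p = 0.0063, adjusted 0.025), with rho = 0.79 (exact permutation p = 0.048, adjusted 0.19), so this relation rests on which clones are kept.

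The genes whose pattern over the 24 clones was most like that of GQ67_02654 were sought among 5020 genes with a mean log2(TPM + 1) of at least 1. The closest was GQ67_03735, with Pearson r = 0.89 and Spearman rho = 0.89, followed by GQ67_01205 with r = 0.88 and rho = 0.73. The points share libraries and scaling, and the median r of all genes was 0.29, so these are descriptions. In all, 61 genes had r above 0.8 and 3 had r below -0.8. The files do not pair these identifiers with names.

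GQ67_03735 was highest in GS115, at 8.20 ± 0.29 with rhGH and 7.89 ± 0.98 with rG-CSF, and at 6.24 to 6.62 in the means of the other 6 groups. It shared the low GS115 rG-CSF clone 14, at 6.84 against 8.03 and 8.80 in clones 12 and 13. Its correlation was 0.77 over the 18 clones outside GS115, 0.81 after centring on the group means and 0.93 without libraries 22A, 8A and 8C, when it was still the closest gene. These correlations use the clones by which it was chosen. GQ67_03735 did not share the drop in libraries 22A, 8A and 8C, where it was at 6.05 to 6.27 against 6.12 to 6.71 in the other 6.

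GQ67_01205 was likewise highest in GS115 (6.82 ± 0.38 with rhGH and 6.83 ± 0.73 with rG-CSF), but without libraries 22A, 8A and 8C its r was 0.84 and it ranked 69th. The genes most opposite to GQ67_02654 were GQ67_05062 (r = -0.84) and GQ67_04725 (r = -0.83). GQ67_05062 was lowest in GS115, at 10.48 ± 0.36 with rhGH and 10.19 ± 0.90 with rG-CSF, against 11.66 to 12.20 in the other groups. Outside GS115 its r was -0.37 over 18 clones, and after centring all 24 clones on the group means it was -0.71. For GQ67_04725 these 2 values were -0.55 and -0.63.

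**Figure D5:**
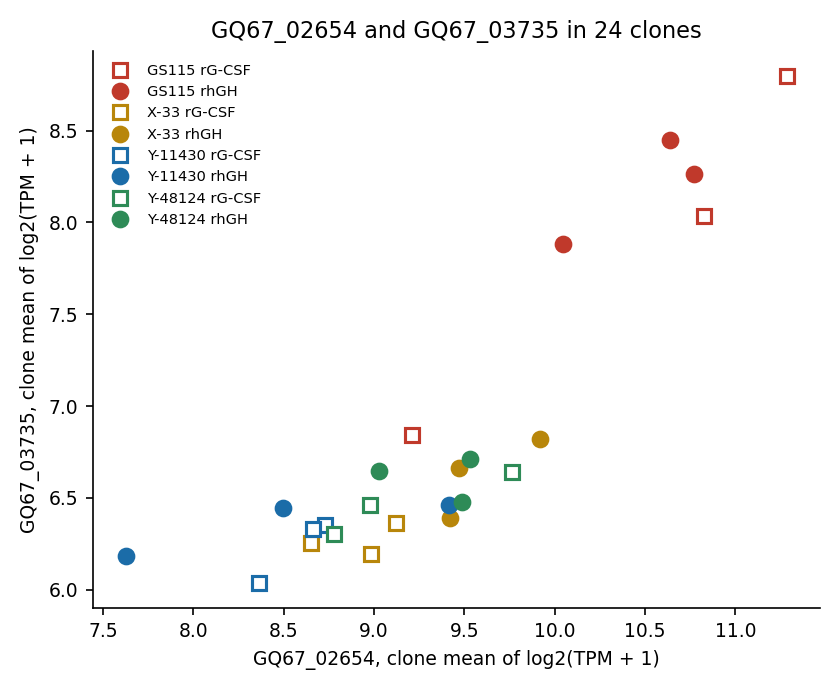
Clone means of log2(TPM + 1) of GQ67_02654 and of GQ67_03735, the gene with the most similar pattern, in 24 clones (filled, rhGH; open, rG-CSF; colour, strain). The 5 GS115 clones at the upper right hold GQ67_03735 at 7.88 to 8.80, and the sixth, rG-CSF clone 14, is at 6.84.

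The study's list of 20 strong loadings holds 9 other genes with the same sign as GQ67_02654 and 10 with the opposite sign, all counted here. With rhGH, 6 of the 9 were higher in GS115 than in the mean of the other strains, 3 of them with all GS115 clones above the other 9, a smaller share than the 41.8% of all genes, and the median difference was 1.45 beside 0.50 over all genes. With rG-CSF 7 of the 9 were higher, again 3 without overlap beside 20.4% of all genes, with a median of 0.80 beside 0.24. Both all-gene medians were positive, so most genes were higher in GS115 too. The 6 and 7 of 9 are therefore not read as a trait of the list. Of the 10 with the opposite sign, 8 were lower in GS115 in each product, with medians of -0.34 and -1.55. The share of all genes lower in GS115 was not counted, but the positive all-gene medians show that most genes were not lower. The list came from a component by which GS115 differed, so the 8 of 10 are not read as a result either. All GS115 clones were below the other 9 in 2 of the 10 with rhGH and 4 with rG-CSF, against 11.7% and 6.93% of all genes. Since the list was drawn from libraries of the same strains, it says nothing independent about the direction.

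Within that list the size for GQ67_02654 was modest. NIT1 was 5.75 higher in GS115 with rhGH and 5.08 with rG-CSF, and PDR12 differed by -4.39 and -4.21, each with no overlap between GS115 and the other clones. YFL040W was 1.50 and 0.84 higher, with overlap in both products. FLO11-BSC1 (GQ67_01392), which the study counts among flocculation genes, differed by -0.38 and 0.26.

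The opposite-sign genes with names varied. CTR1 (GQ67_04497), named for the high-affinity copper transporter, differed by -0.13 with rhGH and 0.08 with rG-CSF, and FRE1 (GQ67_04112), for a ferric and cupric reductase, by -0.25 and -0.57. ZPS1 (GQ67_03591), whose namesake in S. cerevisiae responds to low zinc, differed by -0.16 with rhGH, and with rG-CSF by -1.87 with no overlap.

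NIT1 and PDR12 followed GQ67_02654 over the 24 clones (r = 0.77 and -0.72), but over the 18 clones outside GS115 these values were 0.10 and 0.04. For these 2 genes the likeness was therefore seen between GS115 and the rest and hardly within the rest. GQ67_03735, at 0.77 over the 18 clones, was chosen for its r over all 24. Its value is thus not compared with theirs, and no difference between these correlations was tested.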

How the data were processed

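The gene, the gene list and the comparisons were chosen with earlier results of these data known. The authors quantified 3′-end reads with Salmon 0.9.1 against 1 transcript per gene, extended at its 3′ end, plus 3 transgenes, and deposited raw counts per gene and log2 values, log2(TPM + 1). The submitters' processing notes also name bedtools 2.26.0, without its role. How reads with the same molecular identifier were handled is not stated, so intervals cover counting error only. TPM divides by a transcript length that 3′-end reads do not scale with, so levels are compared mainly within the gene. A read lost outside the annotated 3′ end, or shared with a similar gene, would change a level in all strains, or in 1 strain if its sequence differs there.

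Counts were summed by clone (24 clones, 8 groups of 3) and fitted across 5043 genes passing filterByExpr with edgeR 4.0.16 (TMM, quasi-likelihood, 1 mean per group) in R 4.3.3. The study used DESeq2, run here (1.42.0) as an alternative, as were limma 3.58.1 on clone means of the deposited values, log2(TPM + 0.1), log2(CPM + 1), other filters and scalings, cultures as replicates, a culture block, and leaving out clones or libraries. The 3 transgenes stayed in the fit and out of gene counts. Relations used exact permutations of 9 clones, not kept within strains, in SciPy 1.17.1. The named genes were GQ67_02654, the transgenes, the 2 genes most and the 2 least correlated with it over 24 clones, and the 7 other genes that the study's list names. A gene table of the RefSeq assembly of GS115 matched 0 of the GQ67 identifiers, so no position or sequence is printed.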

Additional observations from a re-analysis of the deposited data

Results flagged for a closer look

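One library lay far from the other 8 of its group in a check of 16 sets of 9 libraries, the level of GQ67_02654 and the total count in each group, where chance gives about 0.8. The total count of GS115 rG-CSF 14A was 33003281, and the gap to the next library took 0.855 of the range of its group. No level of GQ67_02654 met that threshold. In Y-11430 rhGH this check could not single out a library, because 3 of the 9 were low together.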

How the results depend on the processing

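Of the 10 differences described, 8 moved by less than the SD between clones under every alternative run. That SD is a wide measure: in Y-11430 rhGH it was 0.89 with libraries 22A, 8A and 8C and 0.10 without them. Among the 8, the product difference of Y-11430 still went from -0.31 to -0.83 without these libraries. That of Y-48124 from X-33 with rG-CSF went from 0.40 to 0.01 without Y-48124 clone 13. The difference of GS115 from the other strains with rhGH went from 0.78 to 1.33 with limma on log2(TPM + 1), 1.34 with log2(TPM + 0.1) and 1.35 with log2(CPM + 1), scales on which the median gene was also higher in GS115 rhGH. The difference of Y-11430 from Y-48124 and X-33 with rhGH went from -0.69 to -0.073 with limma on log2(TPM + 1) without libraries Y-11430 rhGH 22A, 8A and 8C. Settings without these libraries were added once the levels had been seen. Without single clones the GS115 difference with rhGH ranged from 0.60 to 0.98. That of Y-11430 from Y-48124 and X-33 with rhGH ranged from -1.05 to -0.44. Signs also turned in the product differences of Y-11430 (4 positive values of 21 alternatives) and GS115 (5 negative of 21), both smaller than the SD between clones. DESeq2, with and without shrinkage, gave the same directions as the edgeR fit.

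Of the relations, that to the rG-CSF transgene turned from r = -0.04 to 0.071, and that to depth with rG-CSF rose from 0.30 to 0.92 (n = 7, exact permutation adjusted p = 0.025), both without the 2 clones farthest from the median, and the cause was not tested. Culture letters mark no shared batch in the labels, so they were not taken to pair the libraries. With the letter as a replicate block, GS115 against the other strains gave 0.81 with rhGH and 1.45 with rG-CSF, and no direction changed. Counts of the gene were fewest in the 3 low libraries, at 54 to 115, although the total count of 22A (1783518) was above the median.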
